A study of Mus musculus with 8 samples.

Results

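The response of mouse 3134 cells to dexamethasone was compared between the 2 arms of a Tet-Off experiment, gene by gene, to describe which genes responded more, less, newly or no longer in the arm whose sample titles name plus tetracycline. All 8 arrays of the series entered this comparison, 2 in each of 4 groups, and 19938 genes were measured. The measure was the difference of responses: 4 h minus 0 h of dexamethasone in the plus-titled arm, less the same in the arm titled no tetracycline. It is given on the log2 scale throughout, so that a difference of 1 is 2-fold, and a value below 0 means the larger increase, or the smaller decrease, in the no-titled arm.

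The 4 groups were untreated (0 h) and treated (100 nM dexamethasone, a synthetic glucocorticoid, for 4 h) cells of the no-titled arm, and untreated and treated cells of the plus-titled arm. All groups were the 3134 line, a mammary adenocarcinoma line derived from C127 cells of the RIII strain. Cells of every group also carried stably integrated A-fos and the tetracycline-controlled transactivator tTA, so that A-fos can be switched by tetracycline, and every group was kept in charcoal-treated serum for 48 h beforehand. The sample titles and the tetracycline characteristic give one tetracycline state, and the treatment protocol gives the opposite state for each of the 8 samples. The arms are therefore named by title alone, and the labels leave unsettled in which of them A-fos was made. By the protocol the tetracycline was 1 µg/ml, and cells without it were kept so for 48 h. The arms thus differed in the drug itself as well as in A-fos, which cannot be told apart here. The labels do not state whether the 2 arrays of a group came from separate cultures, so p-values measure the spread between these arrays alone, and that spread may be technical. The labels describe 1 transgenic line, and no group without the integrated transgenes was among the samples.

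The glucocorticoid receptor is a ligand-activated transcription factor that binds DNA as a dimer at palindromic response elements and raises or lowers the transcription of nearby genes. AP-1 is a dimer of Fos and Jun family proteins that occupies many of the enhancers the receptor uses and can open chromatin there, and at other genes the receptor represses AP-1-driven transcription. A-fos is a dominant negative Fos that pairs with Jun proteins and keeps the dimer off DNA. The design asks how far the hormone response of each gene depends on AP-1.

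Array medians lay between 5.44 and 5.47, except on untreated plus-titled replicate 1, at 5.36. Replicate arrays correlated across genes at 0.9932 to 0.9956. Between the replicates of a group, 4 to 24 genes differed by more than 2-fold, most of all between the untreated plus-titled arrays. Mesenchymal markers were the brightest of the marker lists, with array means of 6.81 to 7.03 over 12 genes, and the intermediate filament gene Vim averaged 12.82. In each group 9 of the 12 lay above the median of all values, while Lum (2.69), Fap (3.10) and Dcn (3.94) lay below it. Luminal epithelial markers averaged 5.05 to 5.19 per array over 14 genes, with 2 or 3 of them above the median of all values. Epcam, a defining epithelial adhesion gene, averaged 4.39, at the 26.1st percentile of all genes, and Cdh1, epithelial cadherin, averaged 4.95, both below the median of all values. The luminal transcription factor Gata3 (7.90), the estrogen receptor gene Esr1 (6.02) and the keratin gene Krt8 (5.86) lay above that median, so the epithelial markers were mixed.

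The difference of responses exceeded 2-fold in 24 genes. For 23 of them the responses computed over all pairings of arrays did not overlap between the arms. Such ranges did not overlap in 3374 genes (16.9%) of any size of difference, and the 23 that met both criteria were 0.115% of the genes tested. For 19 of these (0.0953%) the hormone response itself passed the test in at least 1 arm. The test was limma's moderated test with Benjamini-Hochberg adjustment over all genes, called at an adjusted p under 0.05. Those 19 genes are the classed genes. They comprised 5 with a weaker response in the plus-titled arm (Suox, Orm3, Rgs2, Sorbs2 and Angpt4) and 3 with a stronger one (Sgk1, Npy4r and Wfdc6a). A response was lost in the plus-titled arm in 6 (Adm, Nr1h4, Fabp4, S100a7a, F3 and Dipk2a), gained there in 4 (Sult1a1, Fhl2, Arrdc3 and Setdb2) and of opposite sign in 1 (Macroh2a2). Weaker and stronger mean at least 1.5-fold in both arms and the same sign, and lost and gained mean under 1.5-fold in the plus-titled arm (lost) or in the other arm (gained). The classes are a description, since the size of the difference chose their members. The difference lay below 0 in 12 of the 19 and above 0 in 7. Just inside the 2-fold limit were Pglyrp4 at 1.00, Setdb2 at 1.02 and Id2 at -1.02, of which Pglyrp4 and Id2 had no called response, and just outside it were Gpr39 at -0.96, Ifi208 at -0.95 and Depdc7 at -0.94. Genes such as these last 3, which are not classed, were chosen for naming by their place beside the limit.

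The test of the difference itself called 1 gene, Suox, over all 19938 (0.00502%), while 1018 genes (5.11%) had an unadjusted p under 0.05. The response was called in 285 genes (1.43%) in the no-titled arm, with 205 increases (1.03%) and 80 decreases (0.401%). In the plus-titled arm it was called in 220 genes (1.10%), with 164 increases (0.823%) and 56 decreases (0.281%). A gene past the threshold in a single arm is not thereby shown to differ between the arms. As a choice made with earlier results of these data known, the difference was also adjusted over the responding genes. These were the 590 genes (2.96% of those tested) whose response averaged over the arms was called. Among these, 53 genes (8.98%) were called, and 138 (23.4%) had an unadjusted p under 0.05, against 4.55% of the genes that were not responding.

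**Figure D1:**
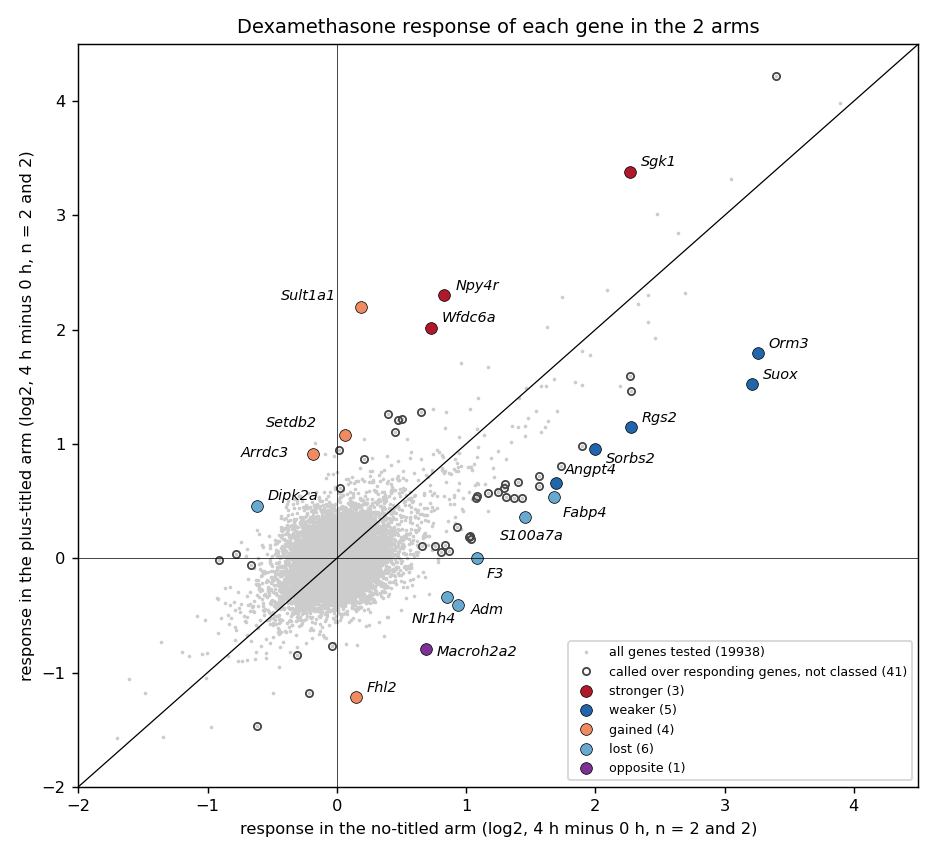
Dexamethasone response (log2, 4 h minus 0 h) of each of 19938 genes in the no-titled arm (horizontal axis) against the plus-titled arm (vertical axis), each from 2 treated and 2 untreated arrays, with a line of equal response. Filled points are the 19 classed genes, coloured by class, and open rings are the other 41 of the 53 genes called over the responding genes; Suox and Orm3 lie below the line with responses above 3 in the no-titled arm, and Sgk1 lies above it.

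Suox, which encodes the mitochondrial sulfite oxidase that turns sulfite into sulfate, rose in both arms and rose less in the plus-titled arm. Its level was 5.83 and 5.80 on the untreated and 8.95 and 9.10 on the treated no-titled arrays, and 6.0 and 6.06 on the untreated and 7.50 and 7.60 on the treated plus-titled arrays. The untreated arrays of both arms lay close together, and the treated arrays of the arms did not overlap. The response was 3.21 (9.28-fold, adjusted p = 2.95e-07) in the no-titled and 1.52 (2.88-fold, adjusted p = 5.18e-05) in the plus-titled arm. The difference of responses was -1.69 ± 0.15 (SE; limma adjusted p = 0.00779 over all genes). In 8 fits that left out 1 array the difference was -1.77 to -1.61, and its direction was fixed because the response ranges did not overlap. Without treated no-titled replicate 1 and without treated plus-titled replicate 2 the call over all genes was kept, in only 2 of the 8 fits. The highest adjusted p in these fits was 0.0843. Over the responding genes Suox was called in all 8.

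Orm3, an acute-phase orosomucoid gene, followed Suox closely, with a correlation over the 8 arrays of 0.994, given as a description of arrays that share the hormone treatment. Its level was 4.73 and 4.69 without hormone and 7.98 and 7.95 with it in the no-titled arm, and 4.79 and 4.88 without and 6.36 and 6.90 with it in the plus-titled arm. Both treated plus-titled arrays lay below both treated no-titled arrays, and the untreated arrays lay within a narrow range. The no-titled response was 3.26 and the plus-titled response 1.79, both called (adjusted p = 2.67e-06 and 0.000182). Their difference was -1.46 ± 0.22, which limma did not call over all genes (adjusted p = 0.129) and called over the responding genes (adjusted p = 0.00611). The related Orm1 had responses of 2.46 and 1.92 and a difference of -0.54 that was not called (adjusted p = 0.961), and probes for one orosomucoid gene may read another. The genes next in likeness to Suox were Edn1 (endothelin, r = 0.986), Ampd3 (an AMP deaminase, r = 0.985) and Abhd2 (a serine hydrolase, r = 0.984). Abhd2 rose by 1.43 in the no-titled arm, had a response of 0.53 in the other, and differed by -0.90 ± 0.15 (adjusted p = 0.197 over all and 0.00952 over the responding genes).

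Promoters of Suox and Orm3 are shown beside those of Sgk1, Sult1a1 and F3, described below, because these 5 span the weaker, stronger, gained and lost classes and hold a match to a searched motif. Each is the 250 bases before a RefSeq transcription start, written 5′ to 3′ on the gene's strand in build GRCm38.p6, with matches in capitals. The AP-1 motif searched was TGANTCA. The glucocorticoid motifs were the hexamer AGAACA and the 13-base palindrome GNACANNNTGTNC, which can overlap, and both strands were searched.
Suox, chr10:128673919-128674168, minus strand: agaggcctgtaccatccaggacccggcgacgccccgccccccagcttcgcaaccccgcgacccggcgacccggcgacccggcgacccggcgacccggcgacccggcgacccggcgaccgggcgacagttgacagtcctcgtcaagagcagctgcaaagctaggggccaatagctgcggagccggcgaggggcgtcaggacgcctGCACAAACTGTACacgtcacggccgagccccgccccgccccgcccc
Orm3, chr4:63355908-63356157, plus strand: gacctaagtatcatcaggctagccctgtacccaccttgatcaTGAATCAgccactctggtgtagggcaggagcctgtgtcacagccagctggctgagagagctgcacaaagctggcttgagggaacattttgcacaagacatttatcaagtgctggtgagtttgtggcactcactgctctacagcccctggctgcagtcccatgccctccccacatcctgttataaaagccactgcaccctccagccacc
Sgk1, chr10:21993640-21993889, plus strand: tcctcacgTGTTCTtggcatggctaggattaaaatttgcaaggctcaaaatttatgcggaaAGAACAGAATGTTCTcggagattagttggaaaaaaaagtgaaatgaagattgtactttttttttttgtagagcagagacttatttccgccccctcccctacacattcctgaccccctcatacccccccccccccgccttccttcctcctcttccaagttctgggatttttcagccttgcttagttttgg
Sult1a1, chr7:126676419-126676668, minus strand: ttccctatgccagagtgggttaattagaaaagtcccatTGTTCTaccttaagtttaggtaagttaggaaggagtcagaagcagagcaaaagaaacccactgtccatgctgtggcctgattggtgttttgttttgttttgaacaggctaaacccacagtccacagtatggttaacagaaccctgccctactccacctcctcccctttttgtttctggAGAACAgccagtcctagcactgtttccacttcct
F3, chr3:121723287-121723536, plus strand: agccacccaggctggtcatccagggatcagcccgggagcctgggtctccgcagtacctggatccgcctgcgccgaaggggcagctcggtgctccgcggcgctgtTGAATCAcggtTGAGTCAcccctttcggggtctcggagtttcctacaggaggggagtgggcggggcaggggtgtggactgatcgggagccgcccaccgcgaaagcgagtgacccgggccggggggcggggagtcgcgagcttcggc
The Suox window holds the palindrome, beginning 46 bases before the start. The Sgk1 window, 1 of 6 promoters listed for that gene, holds the palindrome at 188 bases and hexamers at 242, 189 and 180 bases, the last 2 overlapping it. The Sult1a1 window has hexamers at 212 and 34 bases, Orm3 an AP-1 match at 208 bases, and F3 a pair of AP-1 matches at 146 and 135 bases. Of the 32851 mouse promoters in the table, 6.75% held the AP-1 motif, 16.1% the hexamer and 0.387% the palindrome. Among the 29 promoters of the 18 classed genes found there, 2 (6.9%) held the AP-1 motif, 6 (20.7%) the hexamer and 2 (6.9%) the palindrome. The 6 promoters with the hexamer belonged to 3 genes, so that counted by gene the hexamer share was 16.7% of the classed genes. It was 18.2% of all genes in the table and 15.4% of the 15614 tested genes found there. Counted by gene, the AP-1 motif and the palindrome were each held by 2 classed genes (11.1%), beside 7.12% and 0.416% of those tested genes. Among the 63 promoters of the 43 matched genes called over the responding genes, 5 (7.94%) held the AP-1 motif, 10 (15.9%) the hexamer and 2 (3.17%) the palindrome. The match is of letters only, and much of the receptor's binding is known to lie far from promoters, outside these windows.

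The other weaker responses were those of Rgs2, Sorbs2 and Angpt4, and all 5 weaker genes diverged from like levels without hormone. Rgs2, which restrains G-protein signalling, measured 4.77 and 4.83 untreated and 6.88 and 7.27 treated in the no-titled arm, and 4.58 and 4.86 untreated and 5.58 and 6.15 treated in the plus-titled arm. The treated arms did not overlap, and treated replicates lay further apart than untreated ones. Rgs2 rose by 2.28 and by 1.14 (both called), with a difference of -1.13 ± 0.27 (adjusted p = 0.567 over all and 0.0273 over the responding genes, the latter kept in 3 of 8 fits without 1 array). Sorbs2, an adaptor protein of the actin cytoskeleton, measured 5.60 and 5.82 untreated and 7.62 and 7.80 treated in the no-titled arm, and 5.31 and 5.55 untreated and 6.36 and 6.41 treated in the plus-titled arm. It rose in both arms, by 2.00 and by 0.96, and the treated arms were more than 1 log2 unit apart. The difference for Sorbs2 was -1.04 ± 0.18 (adjusted p = 0.214 over all and 0.00985 over the responding genes, kept in all 8 fits). Angpt4, an angiopoietin ligand of the Tie receptors, rose by 1.70 in the no-titled arm, and its value of 0.66 in the plus-titled arm was not called (adjusted p = 0.356). Its arrays spread widely, from 6.87 to 7.54 in the treated no-titled group alone, and its difference of -1.04 ± 0.34 was called over neither set (adjusted p = 0.830 and 0.0849).

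**Figure D2:**
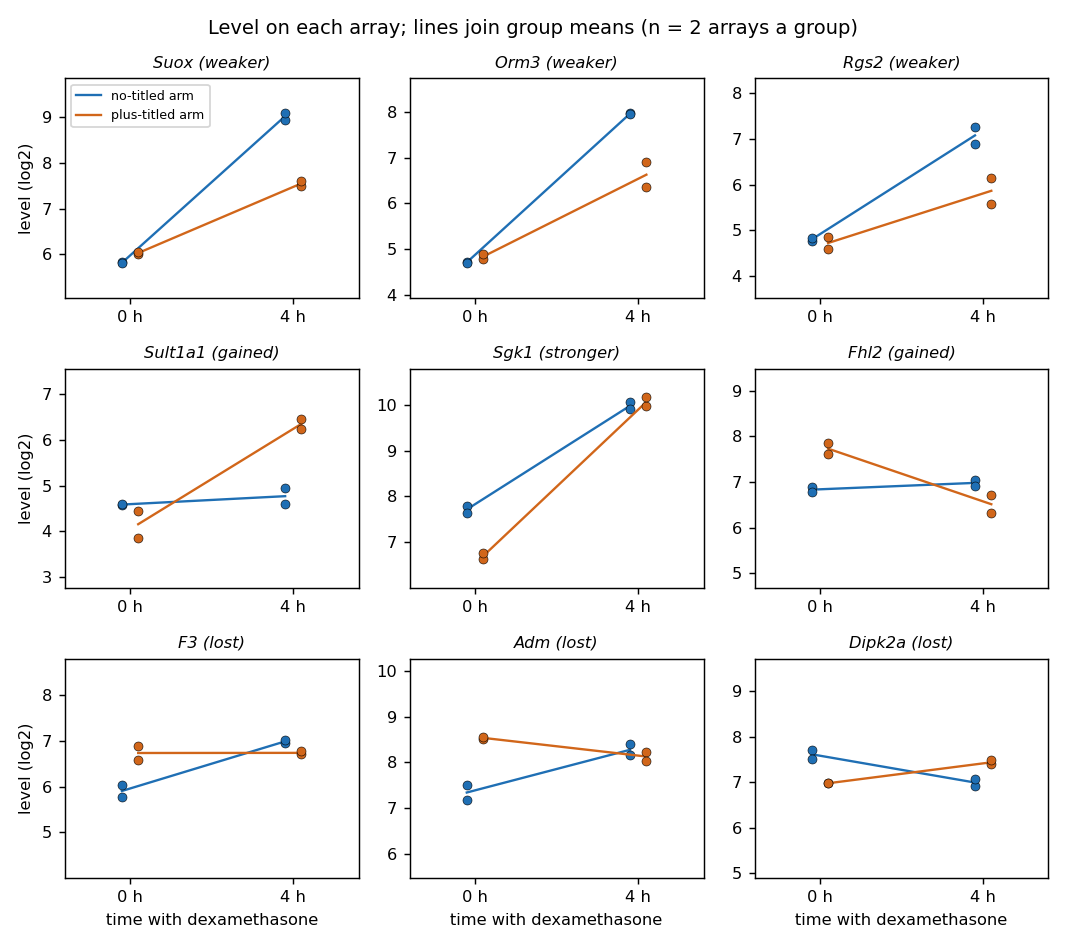
Level (log2) of 9 classed genes on each of the 8 arrays at 0 h and 4 h of dexamethasone, with points for single arrays and lines joining the means of 2 arrays per group, no-titled arm in blue and plus-titled arm in orange. Suox, Orm3 and Rgs2 separate only with hormone, Sgk1, Adm and F3 are apart without hormone and close together with it, and Fhl2 falls only in the plus-titled arm.

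Of the 6 lost responses, 5 were increases in the no-titled arm. Fabp4, a fatty acid-binding protein of fat cells and macrophages, measured 4.28 and 4.53 untreated and 6.08 on both treated arrays of the no-titled arm, and 4.43 and 3.95 untreated and 4.63 and 4.82 treated in the plus-titled arm. The treated no-titled arrays stood above the other 6. It rose by 1.68 (adjusted p = 0.000232) in the no-titled arm, against 0.54 (not called, adjusted p = 0.212), and the difference was -1.14 ± 0.23 (adjusted p = 0.360 over all and 0.0152 over the responding genes, kept in all 8 fits). The other 5 measured adipocyte markers averaged 4.57 to 4.67 on the untreated and 4.47 to 4.61 on the treated no-titled arrays, and 4.36 to 4.56 and 4.34 to 4.45 on the plus-titled ones, so their mean did not follow Fabp4. Adipoq, a defining fat cell gene, was dim at 3.30 (10.1st percentile). In RNA of whole cultures, more cells of a type and more RNA per cell cannot be told apart. S100a7a, of the S100 calcium-binding family expressed in epithelia, measured 6.43 and 6.03 untreated and 7.63 and 7.74 treated in the no-titled arm, and 5.26 and 5.37 untreated and 5.60 and 5.75 treated in the plus-titled arm. The arms did not overlap at either time. It rose by 1.45 in the no-titled arm, and the value of 0.36 in the plus-titled arm was not called. The arms differed by -0.91 without hormone and by -2.0 with it, a widening seen in no other classed gene, and the difference of responses was -1.09 ± 0.20 (adjusted p = 0.271 over all and 0.0118 over the responding genes).

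F3 and Adm took another course, starting apart and ending together. F3, tissue factor, the cell-surface initiator of blood clotting, measured 5.78 and 6.03 untreated and 6.96 and 7.02 treated in the no-titled arm, and 6.88 and 6.59 untreated and 6.71 and 6.77 treated in the plus-titled arm. Both untreated no-titled arrays were lower than the other 6. F3 rose by 1.09 (adjusted p = 0.00146) in the no-titled arm and its value in the plus-titled arm was 0.00 (adjusted p = 0.998), a difference of -1.08 ± 0.19 (adjusted p = 0.208 over all and 0.00985 over the responding genes, kept in 7 of 8 fits). Adm, the precursor of the vasodilator peptide adrenomedullin, measured 7.18 and 7.50 untreated and 8.15 and 8.40 treated in the no-titled arm, and 8.51 and 8.56 untreated and 8.23 and 8.03 treated in the plus-titled arm. Here too the untreated no-titled arrays were the lowest. Adm rose by 0.94 in the no-titled arm, its value of -0.41 in the plus-titled arm was not called, and the difference was -1.35 ± 0.20 (adjusted p = 0.129). Nr1h4, the bile acid receptor FXR, rose by 0.85 in the no-titled arm against a value of -0.34 (not called), from untreated levels of 5.22 to 5.36 over both arms, and its difference was -1.20 ± 0.19 (adjusted p = 0.158). Dipk2a, which encodes a divergent protein kinase domain protein, was the only decrease among the lost responses. It fell by 0.62 in the no-titled arm (adjusted p = 0.0247), had a value of 0.46 in the plus-titled arm (adjusted p = 0.125), and differed by 1.08 ± 0.16 (adjusted p = 0.129). Adm, Nr1h4 and Dipk2a were not among the responding genes, since opposed values in the arms leave a small average.

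The largest difference of any classed gene was that of Sult1a1, a phenol sulfotransferase that conjugates small phenols with sulfate. Its level was 4.58 and 4.59 untreated and 4.95 and 4.59 treated in the no-titled arm, and 3.86 and 4.45 untreated and 6.24 and 6.47 treated in the plus-titled arm. The treated plus-titled arrays stood well above the other 6, which lay between 3.86 and 4.95. The response was 0.18 (adjusted p = 0.902) in the no-titled and 2.20 (4.59-fold, adjusted p = 0.000164) in the plus-titled arm. The difference was 2.02 ± 0.26 (adjusted p = 0.126 over all and 0.00372 over the responding genes) and stayed between 1.72 and 2.31 without any 1 array. Suox makes sulfate and sulfotransferases such as Sult1a1 use its activated form, and the differences of the pair had opposite signs. The other 18 measured members of the sulfur list, chosen with earlier results of these data known, lay between -0.39 (Sult1e1) and 0.18 (Csad).

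Fhl2, a LIM-only cofactor that binds Jun, Fos and nuclear receptors, was the 1 gained decrease. It measured 6.89 and 6.78 untreated and 7.05 and 6.91 treated in the no-titled arm, and 7.85 and 7.62 untreated and 6.71 and 6.32 treated in the plus-titled arm. The untreated plus-titled arrays were the highest of the 8 and the treated plus-titled arrays the lowest. Fhl2 fell by 1.22 in the plus-titled arm (adjusted p = 0.00170), against 0.15 in the other (adjusted p = 0.900), a difference of -1.37 ± 0.21 (adjusted p = 0.129 over all and 0.00611 over the responding genes, the latter kept in 4 of 8 fits). Arrdc3, an alpha-arrestin that sorts membrane receptors, rose by 0.92 in the plus-titled arm (adjusted p = 0.0111) against -0.18, and differed by 1.10 ± 0.20 (adjusted p = 0.271). Setdb2, a SET domain protein of the histone methyltransferase family, rose by 1.08 in the plus-titled arm (adjusted p = 0.0435) against 0.06, but its 2 untreated plus-titled arrays read 5.79 and 4.97, and it kept its class in 1 of 8 fits without 1 array.

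Among the 3 stronger responses, Sgk1 was the brightest. Sgk1, the serum- and glucocorticoid-regulated kinase and a classical direct target of the receptor, measured 7.79 and 7.64 untreated and 10.07 and 9.90 treated in the no-titled arm, and 6.63 and 6.75 untreated and 9.98 and 10.17 treated in the plus-titled arm. The treated arrays of the arms overlapped, and the untreated plus-titled arrays were about 1 log2 unit lower than their no-titled counterparts. Sgk1 rose by 2.27 (4.83-fold) and by 3.38 (10.4-fold), both called, and the difference was 1.11 ± 0.17 (adjusted p = 0.129 over all and 0.00611 over the responding genes, kept in all 8 fits). The arms differed by -1.02 without hormone (adjusted p = 0.000884) and by 0.09 with it (adjusted p = 0.752). Npy4r, a receptor for pancreatic polypeptide, measured 3.22 and 3.52 untreated and 3.91 and 4.49 treated in the no-titled arm, and 3.66 and 3.83 untreated and 5.68 and 6.42 treated in the plus-titled arm. It rose by 2.30 in the plus-titled arm, its value of 0.83 in the other was not called, and the difference was 1.47 ± 0.34 (adjusted p = 0.522 over all and 0.0249 over the responding genes, kept in 5 of 8 fits). The treated plus-titled arrays were the highest by over 1 log2 unit. Wfdc6a, of the WAP domain protease inhibitor family, rose by 2.02 in the plus-titled arm against 0.73 (not called), with a difference of 1.29 ± 0.29 (adjusted p = 0.0225 over the responding genes, 0.491 over all). It was dim, with a mean of 3.60 over the arrays, and Npy4r averaged 4.34. Of the 19 classed genes, 12 averaged above the median of all values, 5.66. Fabp4 (4.85), Sult1a1 (4.97), Nr1h4 (5.43) and Rgs2 (5.62) also averaged below it. The 1 gene with opposite responses, Macroh2a2, a variant core histone of repressed chromatin, was also dim at a mean of 4.17. It had values of 0.69 in the no-titled arm (adjusted p = 0.0747) and -0.80 in the other (adjusted p = 0.0435), a difference of -1.49 ± 0.23 (adjusted p = 0.129), and it kept its class in 2 of 8 fits.

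The arms were also compared at each time, to show whether a difference of responses lay at the start or at the end. These comparisons use the same arrays as the responses, so they describe the same difference and do not support it. Across all genes the arms differed in 1870 genes (9.38%) at 0 h and in 1916 (9.61%) at 4 h, and among the classed genes in 8 and 15 of 19, with no gene called at neither time. With a limit of 1.5-fold, 11 of the 19 diverged, being closer than that at 0 h and further apart at 4 h. These were all 5 weaker genes together with Sult1a1, Setdb2, Npy4r, Wfdc6a, Nr1h4 and Fabp4. The 5 that converged were Sgk1, Fhl2, Adm, F3 and Dipk2a, where the untreated levels differed and the treated levels lay within 1.5-fold. Their differences at 4 h were 0.09, -0.47, -0.15, -0.25 and 0.44 in that order. S100a7a widened, Macroh2a2 crossed and Arrdc3 stayed within 1.5-fold at both times, at -0.56 and 0.54.

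**Figure D3:**
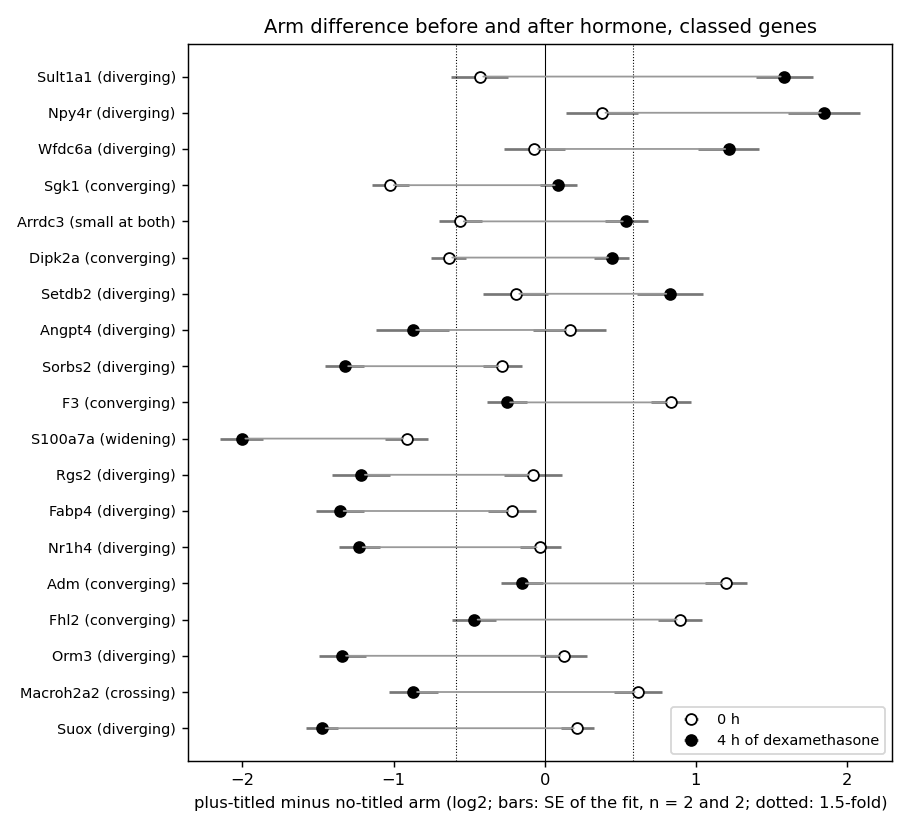
Plus-titled minus no-titled level (log2) at 0 h (open circles) and at 4 h (filled circles) for the 19 classed genes, with bars of 1 SE from the fit, 2 arrays per group, and dotted lines at 1.5-fold. Suox and Orm3 start near 0 and end below -1, and Sgk1 and Adm start beyond 1 on either side and end near 0.

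The 53 genes called over the responding genes, 12 of them classed genes, were mostly induced ones. On average over the arms 45 were higher with hormone and 8 were lower. Among the 45, the increase was larger in the no-titled arm for 32 and in the plus-titled arm for 13. Among the 8, the decrease was larger in the no-titled arm for Fosl2, Irs1 and Btc and in the plus-titled arm for Fhl2, Adamts1, Gpr39, Rnd3 and Inhbb. All 5 of Irs1, Btc, Gpr39, Rnd3 and Inhbb were named after their values were seen. The differences ranged from 0.54 to 2.02 in size with a median of 0.82. The response passed the test in both arms for 19 of the 53, in the no-titled arm alone for 20 and in the plus-titled arm alone for 14. The arms differed at 4 h alone in 32, at 0 h alone in 10, at both in 8 and at neither in 3. Over all 345 responding genes that were higher with hormone, the median no-titled response was 0.66 and the median plus-titled response 0.58, 214 had the larger value in the no-titled arm, and 31.3% had an unadjusted p under 0.05 for the difference. Over the 245 that were lower, the medians were -0.48 and -0.44 and that share was 12.2%. The median difference over all genes was -0.01.

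Several of these genes are known for their ties to AP-1 or to the matrix. Fosl2, a Fos family subunit of AP-1 itself, averaged 8.31 untreated and 7.40 treated in the no-titled arm and 7.55 and 7.53 in the plus-titled arm. Its level was high in 1 group only, the untreated no-titled arrays. Fosl2 fell by 0.91 in the no-titled arm against -0.02, a difference of 0.89 ± 0.16 (adjusted p = 0.271 over all and 0.0118 over the responding genes). Lox, the collagen cross-linking oxidase, averaged 9.28 and 9.68 in the no-titled arm and 7.64 and 8.90 in the plus-titled arm, so that its level was lower in the plus-titled arm at both times and its response larger there (0.40 against 1.27). The difference for Lox was 0.87 ± 0.15 (adjusted p = 0.197 over all and 0.00952 over the responding genes). Adamts1, a secreted protease of matrix proteoglycans, fell by 0.62 and by 1.47, from 9.54 and 10.46 untreated to 8.92 and 8.99 treated, and so ended at a like level in both arms. Its difference was -0.85 ± 0.17 (adjusted p = 0.363 over all and 0.0152 over the responding genes). Lcn2, the iron-scavenging lipocalin, had the largest responses among these, 3.40 in the no-titled arm against 4.22, and differed by 0.82 (adjusted p = 0.633 over all and 0.0413 over the responding genes). Tsc22d1, a relative of the glucocorticoid-induced leucine zipper, had responses of 1.31 and 0.54 and a difference of -0.77 (adjusted p = 0.396 over all and 0.0170 over the responding genes).

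Among the 33 measured genes of a list of glucocorticoid-induced genes, 21 were called higher with hormone in each arm. The list was chosen with earlier results of these data known, so its shares are a description and no independent support. The median difference of the list was -0.06, beside -0.01 over all genes, and single members lay between -1.13 (Rgs2) and 2.02 (Sult1a1). Of the 33, 23 were responding genes and could be called over them, and 6 of these 23 were, beside 8.98% of all responding genes. An unadjusted p under 0.05 was found for 39.4% of the list, 6 above 0 and 7 below, beside 5.11% of all genes and 23.4% of the responding genes. Fkbp5, a receptor co-chaperone and a standard marker of receptor activity, had responses of 3.05 and 3.32 and a difference of 0.27 that was not called. Dusp1, the MAP kinase phosphatase by which glucocorticoids restrain inflammatory signalling, had responses of 2.19 and 1.51 and a difference of -0.68 that was not called (adjusted p = 0.902).

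On the AP-1 side, calls over the responding genes were open only to responding members, and 2.96% of all genes tested were responding. Of 18 measured AP-1 target genes 5 were responding, and limma called 0 of these. A single gene of the 18 had an unadjusted p under 0.05 (5.56%, beside 5.11% of all genes), the growth factor gene Hbegf, with a difference of 0.58 (adjusted p = 0.802 over all genes). Hbegf was called (adjusted p = 0.0459) when the adjustment ran over the 222 genes with an average response of at least 1.5-fold, a choice made after seeing the data. The list median was 0.10. Of 18 AP-1 subunits 3 were responding, of which Fosl2 was called, and the median of the 18 was -0.04. Fos averaged 5.03 and 5.36 in the no-titled arm against 5.35 and 6.07, which gave a difference of 0.40 ± 0.18 (adjusted p = 0.967). The probes of Fos may or may not read the A-fos transgene, which was not examined. Fosl1 averaged 7.58 and 7.08 in the no-titled arm against 6.52 and 6.32, and its difference of 0.30 ± 0.22 was not called (adjusted p = 0.997). Jun averaged 8.69 and 8.14 against 8.68 and 7.97, with a difference of -0.15 ± 0.17, and Nr3c1, the glucocorticoid receptor gene, averaged 8.73 and 8.34 against 8.78 and 8.30, with a difference of -0.10 ± 0.15. Neither was called (adjusted p = 0.997 for both).

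In the other lists, too, calls over the responding genes were open only to responding members, and the share over all responding genes was 8.98%. The acute-phase and innate secreted proteins had 5 responding members, of which Orm3 and Lcn2 were called, with differences of opposite sign. The median of the whole list, 0.02, changed sign under median centring and cyclic loess. The extracellular matrix list had 7 responding members, of which 3 were called: Lox, Adamts1 and Ccn2 (a matricellular growth factor, responses 0.65 and 1.28, adjusted p = 0.0302 over the responding genes). The muscle and cytoskeletal list had 4, with Fhl2 and Ccn2 called, the lipid and fat cell list 2, with Fabp4 called, and the sulfur list 3, with Suox and Sult1a1 called. Limma called 0 of 5 responding inflammatory mediators, 0 of 5 MAPK feedback genes, 0 of 4 clock genes, 0 of 3 integrated stress response genes, 0 of 2 immediate-early genes, 0 of 2 receptor cofactors and chaperones and the 1 responding cholesterol synthesis gene neither. The G1/S list had 0 responding members, so none could be called. Counted over all measured members, an unadjusted p under 0.05 was found for 2 of 25 inflammatory mediators, 3 of 14 MAPK feedback genes, 2 of 18 integrated stress response genes, 1 of 18 immediate-early genes, 1 of 18 cholesterol synthesis genes, 1 of 22 G1/S genes and 0 of the clock and cofactor lists, beside 5.11% of all genes. In the G1/S list, genes of DNA replication licensing and S phase entry, the difference lay below 0 in 21 of 22, with a median of -0.23, and Cdt1 was at -0.40 and Ccne1 at -0.44. In the cholesterol synthesis list it lay below 0 in 14 of 18, with a median of -0.22, and the sterol oxidase gene Msmo1 was at -0.44. Over all genes the difference lay below 0 in 10620 of 19938. In both lists the single differences were small, and limma called 0 of them over all genes. Under cyclic loess the G1/S median was -0.19, with 19 of 22 below 0, and the cholesterol median -0.17.

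**Figure D4:**
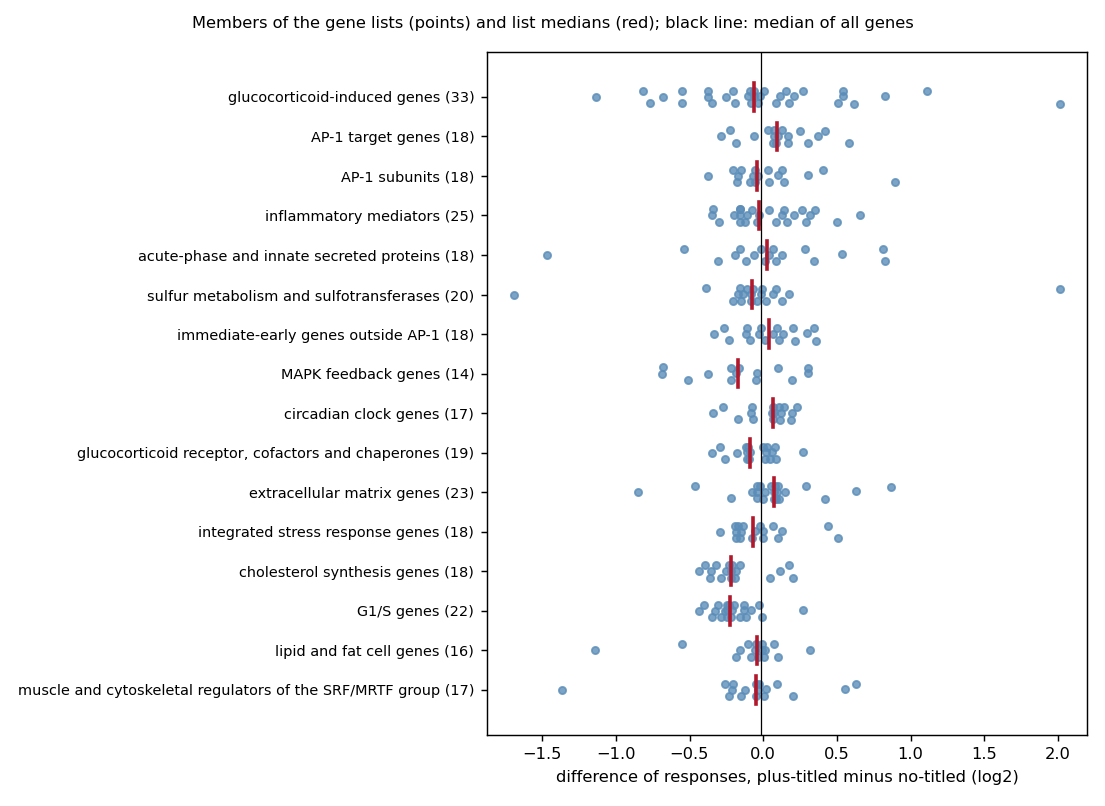
Difference of responses (log2, plus-titled minus no-titled) of each measured member of 16 gene lists (points) with the list medians (red bars), beside the median of all genes (black line, -0.01). Most members lie within 0.5 of 0, the sulfur list holds the extremes at -1.69 (Suox) and 2.02 (Sult1a1), and members of the G1/S and cholesterol synthesis lists lie mostly below 0.

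The classes rest on few arrays. When each array was left out in turn, 13 to 16 of the 19 genes were classed again and 11 to 15 kept their class. Suox, Orm3, Fhl2, Sgk1 and Sult1a1 kept theirs in all 8 fits, while Setdb2 did in 1 and Macroh2a2 and Angpt4 in 2. Of the 53 genes called over the responding genes, 15 were called in all 8 fits and 8 in none. The count fell to 34 and 26 without replicates 1 and 2 of the untreated no-titled group, to 28 and 27 without those of the treated no-titled group, and lay between 39 and 57 without a plus-titled array. These totals include genes outside the 53, so fewer of the 53 themselves were called in each such fit. On the linear scale, where a difference of responses is taken in units of signal and not of fold, the direction was the same for 19 of the 19 classed genes and for 52 of the 53.

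**Figure D5:**
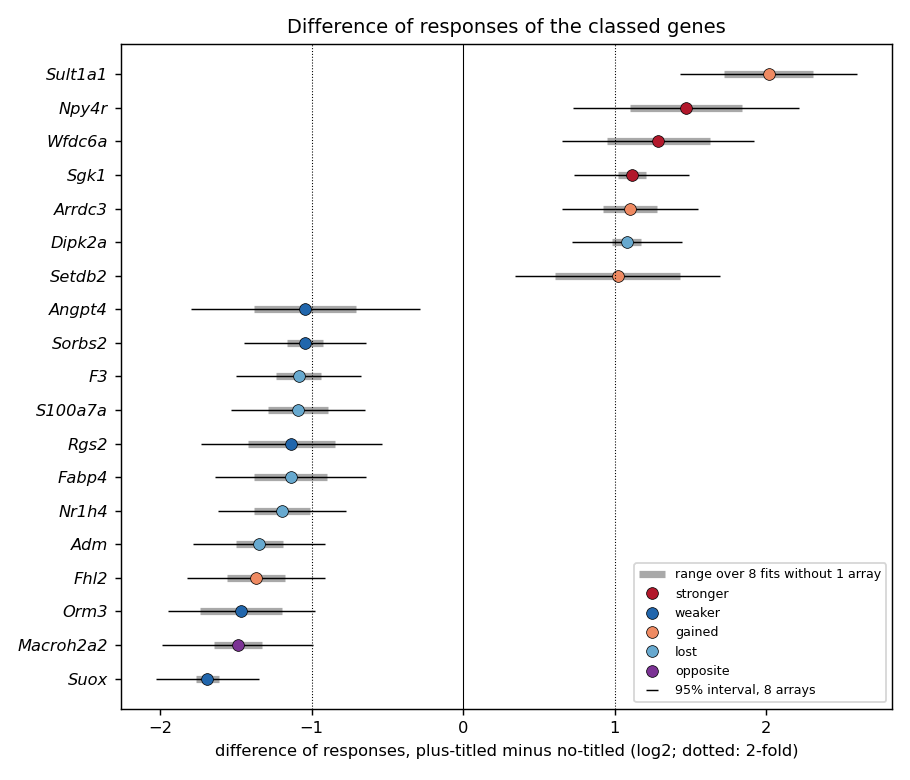
Difference of responses (log2, plus-titled minus no-titled) of the 19 classed genes, with 95% intervals from the fit to 8 arrays (thin lines), the range over 8 fits without 1 array (grey bars) and the 2-fold limit (dotted). Suox has the shortest interval, -2.03 to -1.35, and Angpt4 has one of -1.80 to -0.28. Setdb2 has the widest grey bar, from 0.61 to 1.43.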

How the data were processed

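The deposited table holds log2 expression values of the authors for 28888 probe sets on 8 arrays. Per the submitters' processing notes they were made with Affymetrix Expression Console and RMA (versions: not given in the sources used). RMA includes quantile normalization, which hides any change common to most genes, and folds of dim genes are compressed.

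Exactly 1 gene symbol was paired with 21789 probe sets, several with 1621 and none here with 5478. The probe set with the highest mean stood for its gene, which left 19938 genes, of which 999 had several probe sets (none of the classed genes). Dim genes were kept. Precision is limited by the number of arrays.

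Group means over all 8 arrays were fitted with limma 3.58.1 in R 4.3.3 (lmFit, eBayes; 4 residual and 6.64 prior degrees of freedom, prior SD 0.127). Tests were 2-sided with Benjamini-Hochberg adjustment. The p-values of the average response and of the difference share an estimate of the spread, so genes were also chosen by an average response of at least 1.5-fold, an alternative chosen after seeing the data.

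The genes, lists, classes and the adjustment over the responding genes were chosen with earlier results of these data known. Named genes were those called over all genes, the 10 with the smallest p, up to 8 per class, up to 3 per list by p, Fos, Fosl1, Jun and Nr3c1, and up to 4 most like Suox. Others were named after their values were seen. The fit, with adjustment over all genes, was tested on simulated data with independent noise and known changes in the treated plus-titled group alone. The adjustment over the responding genes was not simulated. Promoters came from RefSeq (GRCm38.p6) by symbol. Alternatives were another variance model, a replicate block, a 1.5-fold minimum, leaving out the dimmest 25% of genes, cyclic loess, median centring, other rules for probe sets, the linear scale and other fold limits.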

Additional observations from a re-analysis of the deposited data

Results flagged for a closer look

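Limma's test of the difference itself called 12 of the classed genes, Suox over all genes and the others only over the responding genes. That second adjustment was chosen with earlier results of these data known. Over all genes the others had adjusted p of 0.126 (Sult1a1) to 0.567 (Rgs2) in the same test. The classes themselves were set by the size of the difference. Over all genes the called gene was Suox, at -1.69. Over the responding genes it was, beside Suox, Sult1a1 at 2.02, Npy4r at 1.47, Wfdc6a at 1.29 and Sgk1 at 1.11 with the larger increase in the plus-titled arm. Orm3 at -1.46, Fabp4 at -1.14, Rgs2 at -1.13, S100a7a at -1.09, F3 at -1.08 and Sorbs2 at -1.04 had the larger increase in the no-titled arm, and Fhl2 at -1.37 had its decrease in the plus-titled arm. All are log2 differences of plus-titled minus no-titled responses from 8 arrays.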

How the results depend on the processing

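Over all genes the difference of responses was called in 1 gene, in 11 with a trended and robust variance (Suox, Sult1a1, Orm3, Sgk1, Fhl2, Adm, Macroh2a2, Dipk2a, Lox, Abhd2 and Aldh1a1), in 2 with median centring, in 0 against a 1.5-fold minimum (limma's treat; 1018 at an unadjusted p under 0.05 in the usual test) and in 0 to 2 without 1 array. Same-numbered arrays correlated in their deviations at -0.0191 to 0.133 over 6 pairs of groups, which cannot show whether they were handled together. With a replicate block Suox kept its call (adjusted p = 0.0297) and 55 responding genes were called. That count, 53, was 83 with the trended variance and 26 to 57 without 1 array. Over the 222 genes with an average response of at least 1.5-fold, chosen after seeing the data, 55 were called, 38 of them shared with the 53, and the share with an unadjusted p under 0.05 was 36.5%, against 23.4% of the responding genes, which ranged from 23.0% to 28.8% without 1 array. With lower limits, of 1.5-fold for the difference and less for the responses, 84 genes were classed, with 12 stronger, 25 weaker, 16 gained, 27 lost and 4 opposite. Without 1 array the classed genes numbered 15 to 21, with 1 to 4 stronger, 3 to 6 weaker, 3 to 8 gained, 2 to 8 lost and 0 to 1 opposite. The opposite gene and the crossing pattern came to 0 with the replicate block and with the dimmest 25% of genes left out. With a limit below 1.5-fold between arms, 3 converged, 5 crossed, 2 widened and 0 stayed small at both times. The last count was 2 with the trended variance and 0 with cyclic loess. Without 1 array, 9 to 14 diverged, 3 to 9 converged, and 0 to 1 each crossed, widened, narrowed or stayed small. Differences near 0 changed sign for Oxtr (-0.12 to 0.58 without 1 array), Pecam1 (-0.056 to 0.58), Adipoq (-0.50 to 0.13) and Lyz2 (-18.6 in linear signal units). Of the other values for single genes, 1219 kept direction and call, 11 gained and 6 lost a call. Over all genes only Suox was called in the main fit, so most of these values were uncalled to begin with. Their number therefore does not show that calls were stable. The causes were not tested.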
